A study of Mus musculus with 42 samples.

Results

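Ttn, Neb, Nrap, Xirp1, Xirp2, Mybpc1, Mybpc2 and Mybph encode giant scaffold proteins of the sarcomere and the proteins that bind its myosin, and they were selected by symbol from the 24466 genes of the RNA-seq count files. All 8 symbols were present. The counts came from iPax7 cells, muscle precursors derived from a mouse embryonic stem cell line in which doxycycline (Dox) switches on a Pax7 transgene, and which were sorted as PDGFRα+ Flk-1- cells from embryoid bodies. One group was kept in Dox (+Dox, 3 libraries). A second group had Dox removed for 3 days in otherwise the same medium (-Dox, 2 libraries), and the third was satellite cells sorted from the muscle of Pax7-ZsGreen reporter mice (3 libraries). All iPax7 cells carried the transgene and had been grown in Dox first, so the -Dox cells differ from +Dox in agent and not in genotype. Strain and age of the mice and the number of animals behind each satellite cell library were not given in the sources used here. Peak lists from ATAC-seq, which maps accessible chromatin, covered the same cell states. ChIP-seq lists of 4 histone marks were of +Dox and -Dox iPax7 cells, the Pax7 list used was of +Dox, and satellite cells had none. Further ATAC-seq lists came from iPax7 myotubes in horse serum and from C2C12, a mouse myoblast line. The C2C12 cells were untreated, grown as myotubes, or expressed Flag-tagged Pax7 (Pax7-Flag) or a Flag control. Pax7-Flag and Flag control cells also had lists of the same histone marks.

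A sarcomere is the contractile unit of striated muscle, in which actin thin filaments anchored at Z-discs slide past myosin thick filaments centred on the M-band. Titin (Ttn), the largest known protein, runs from Z-disc to M-band and acts as a molecular spring and template, while nebulin (Neb) runs along the thin filament. Satellite cells and other undifferentiated muscle precursors do not build sarcomeres. The genes for sarcomere proteins are switched on as precursors withdraw from the cell cycle and fuse into myotubes.

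Counts assigned to genes ran from 39010958 to 54674619 per library. Reads that mapped to several places, which were not counted, made up 7.11% to 7.60% of reads in iPax7 libraries and 23.6% to 30.7% in satellite cells. The targeted gene followed the labels. Pax7 had 16986, 19081 and 12750 counts in +Dox, 240 and 292 in -Dox, and 6460, 2929 and 4137 in satellite cells. Replicate 3 of +Dox stood apart from the other +Dox libraries (Pearson r of 0.960 and 0.967 across genes on the log2 scale, against 0.988 between replicates 1 and 2), so results that rest on it are given with and without it. Satellite cell libraries carried summed endothelial marker levels of 246 to 416 CPM (counts scaled to a common library total) over 5 genes, against at most 3.50 in iPax7 libraries. Their fibroblast markers summed to 1152 to 2303 CPM over 6 genes against 55.0 to 62.6 in +Dox, and their blood cell markers to 27.8 to 82.6 CPM over 6 genes against at most 9.80 in iPax7. Smooth muscle and pericyte markers summed to 231 to 459 CPM over 4 genes against at most 4.60 in iPax7, and glial markers to 40.2 to 68.1 CPM over 4 genes against at most 1.94. The part of these cells in the satellite cell values was not tested, and in bulk RNA fewer expressing cells and less RNA per cell cannot be told apart.

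Titin, nebulin and their relatives sit on mouse chromosomes as follows, in the NCBIM37 (mm9) build with GENCODE M1 gene models. Ttn covers 279 kb of the minus strand of chromosome 2 (start 76542037, end 76820604), with 347 exons in its longest transcript. Neb covers 202 kb of the same strand (start 51992167, end 52194318), with 157 exons. Xirp2 is also on chromosome 2, on the plus strand (start 67284059, end 67364671). Xirp1 is the most compact scaffold gene, 9.84 kb on chromosome 9 (start 119922873, end 119932716). Nrap lies on chromosome 19 (start 56394525, end 56464527), Mybpc1 on chromosome 10 (start 87981024, end 88067897), Mybpc2 on chromosome 7 (start 51757088, end 51780039) and Mybph on chromosome 1 (start 136090025, end 136097808). Genes annotated on the opposite strand overlap Mybph (Adora1), Nrap (Habp2), Ttn, Neb and Xirp2, and where reads were counted without strand those could not be separated.

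The 250 bases just before 4 of the start sites are shown because peaks at these starts appear, spread or shift between the cell states described further on. Capitals mark E-boxes (CANNTG, the core bound by basic helix-loop-helix factors such as MyoD and myogenin), sites of the MEF2 type and CArG boxes, the core of serum response factor sites, searched on both strands. Sequences are written 5′ to 3′ in the direction of the gene and come from the NCBIM37 genome.
Ttn, chr2:76820605-76820854, minus strand: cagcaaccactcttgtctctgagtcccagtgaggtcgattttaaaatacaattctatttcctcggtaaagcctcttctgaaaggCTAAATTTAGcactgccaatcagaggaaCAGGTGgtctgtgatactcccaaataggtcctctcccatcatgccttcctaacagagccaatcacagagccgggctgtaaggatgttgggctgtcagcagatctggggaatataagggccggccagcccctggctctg
Xirp2, chr2:67283809-67284058, plus strand: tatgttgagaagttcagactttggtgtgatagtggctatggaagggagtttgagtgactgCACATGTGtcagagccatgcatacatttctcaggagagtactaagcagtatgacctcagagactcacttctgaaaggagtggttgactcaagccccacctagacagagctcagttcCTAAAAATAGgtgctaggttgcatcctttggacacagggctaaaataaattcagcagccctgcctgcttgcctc
Neb, chr2:52194319-52194568, minus strand: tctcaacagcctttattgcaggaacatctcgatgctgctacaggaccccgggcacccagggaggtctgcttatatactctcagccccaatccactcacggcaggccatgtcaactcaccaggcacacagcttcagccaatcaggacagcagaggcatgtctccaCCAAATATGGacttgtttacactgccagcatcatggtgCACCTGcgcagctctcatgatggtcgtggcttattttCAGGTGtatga
Mybph, chr1:136089775-136090024, plus strand: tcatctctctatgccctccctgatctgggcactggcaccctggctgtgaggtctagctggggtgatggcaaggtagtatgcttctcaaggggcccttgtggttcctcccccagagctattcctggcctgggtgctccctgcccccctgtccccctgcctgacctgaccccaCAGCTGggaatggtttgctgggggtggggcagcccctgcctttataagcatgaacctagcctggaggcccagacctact

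Of the 4 sequences shown, those of Ttn and Xirp2 held a MEF2 type site, which 1.97% of the 13486 start sites of genes tested in RNA-seq had. Its first base was 166 bases before the start of Ttn and 74 before that of Xirp2. Neb had a CArG box, 86 bases before its annotated start, against 1.16% of all starts. No ATAC-seq, H3K4me3 or H3K27Ac peak lay within 1 kb of that start in -Dox at 3 days. The nearest H3K4me3 and H3K27Ac peaks were 2.56 and 2.47 kb away, and which start was used was not tested. The E-box form CAGCTG was found 79 bases before the start of Mybph, against 12.1% of all starts. E-boxes of any form occurred before each of the 4 genes shown, but 58.7% of all starts had one, and CAGCTG is counted among them. In Xirp2 a pair of overlapping E-boxes shared an 8-base stretch. These matches are letters in a window, not measured binding.

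The first comparison asked what happens to these genes when Pax7 is withdrawn. All 7 genes that passed the filter on low counts were called higher in -Dox than in +Dox. Of the 14836 genes tested, 4.63% were called higher, 3.01% lower and 7.64% in either direction. A call required an adjusted p under 0.05 in edgeR's quasi-likelihood test, adjusted over all genes by Benjamini-Hochberg, and at least a 2-fold change. Mybpc2, the eighth gene, did not pass the filter. The median log2 fold change of the 7 was 9.24, against -0.0049 over all genes tested. Read counts on the 8 genes rose from 2423 to 8532 per +Dox library to 223704 and 228949 in -Dox, or from 0.00503% to 0.0163% of all counts to 0.434% and 0.438%.

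**Figure D1:**
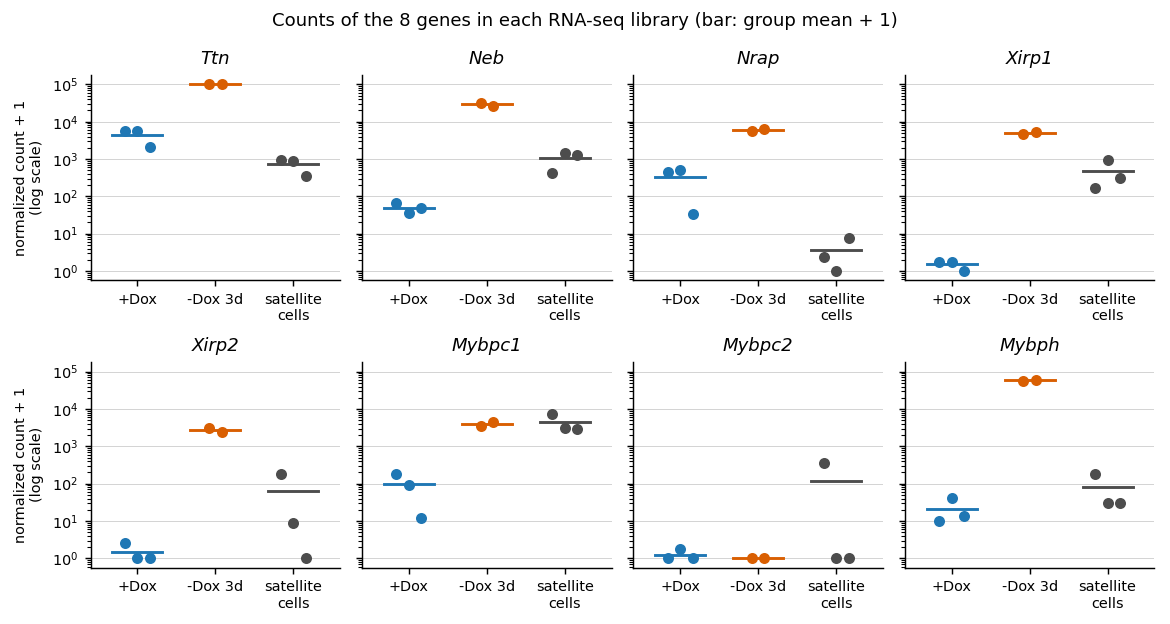
Normalized counts plus 1, on a log scale, of the 8 genes in each of the 8 RNA-seq libraries (points) with the group mean plus 1 (bars). The group mean is highest in -Dox for Ttn, Neb, Nrap, Xirp1, Xirp2 and Mybph. Mybpc1 overlaps between -Dox and satellite cells, and Mybpc2 has more than 1 count only in replicate 1 of satellite cells.

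Titin was already transcribed in +Dox cells. Ttn had 7602, 7404 and 2311 counts in the 3 +Dox libraries and 112198 and 110744 in -Dox, with replicate 3 the lowest of +Dox. Its normalized count, which is the count scaled to a common effective library size, averaged 4432 ± 2019 (SD) over the 3 +Dox libraries and 102669 ± 626 (SD) over the 2 -Dox libraries. The log2 fold change was 4.53 ± 0.53 (SE, edgeR adjusted p = 0.00107), and the call held without replicate 3 of +Dox (adjusted p = 0.00307).

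Nebulin, which helps set the length and stiffness of the thin filament, started far lower and rose further. Neb had 86, 47 and 51 counts in +Dox and 35423 and 28772 in -Dox. That is a mean of 48.6 ± 15.0 (SD, n = 3) against 29557 ± 4239 (SD, n = 2) normalized counts, a log2 fold change of 9.24 ± 0.63 (SE, edgeR adjusted p = 4.30e-05). Per kilobase of annotated exon the Ttn level was 37.9 in +Dox and 879 in -Dox, while that of Neb was 1.84 and 1121.

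Nrap, a nebulin-related anchoring protein with a LIM domain found in young myofibrils and at myotendinous junctions, was the least certain of the 7. It had 588, 690 and 35 counts in +Dox and 6271 and 7066 in -Dox. The fall in replicate 3 made the +Dox spread wide, 328 ± 259 (SD, n = 3), against 6143 ± 537 (SD, n = 2) in -Dox. Its log2 fold change of 4.22 ± 0.94 (SE) had an edgeR adjusted p of 0.0258. Leaving out replicate 3 of +Dox gave 3.69 (adjusted p = 0.0111), but the call was lost without replicate 1 (0.0708) or 2 (0.0553) of +Dox or replicate 1 (0.0895) or 2 (0.102) of -Dox, as adjusted p in edgeR.

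The 2 Xin actin-binding repeat genes, whose proteins bind actin bundles and localise to sites of membrane attachment and muscle damage, were close to silent in +Dox. Xirp1 had 1, 1 and 0 counts in +Dox and 4955 and 5902 in -Dox, a ratio of scaled counts of 9449 (95% exact counting interval 2615 to 78037). Xirp2 had 2, 0 and 0 counts in +Dox and 3438 and 2671 in -Dox, a ratio of 5317 (1471 to 43914). Both passed edgeR's test (adjusted p = 9.96e-05 and 0.00785), and the intervals cover counting error only. Fitted fold changes of both genes depend on the prior count that edgeR adds. The log2 ratio of Xirp2 to Xirp1 counts was -0.53 and -1.14 in the -Dox libraries, against 0.14, -6.78 and -8.86 in satellite cells (exact two-sided permutation test, p = 0.4, adjusted p = 0.5 over 9 tests).

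Of the myosin-binding genes, Mybph rose most. It encodes myosin-binding protein H, a shorter relative of the myosin-binding protein C family found in the thick filament. Mybph had 12, 54 and 14 counts in +Dox and 62774 and 63651 in -Dox, where it overlaps the Adora1 gene on the other strand. Means of 20.6 ± 16.9 (SD, n = 3) and 58223 ± 753 (SD, n = 2) normalized counts gave a log2 fold change of 11.45 ± 1.07 (SE, edgeR adjusted p = 0.000256). Mybpc1, the slow skeletal isoform of myosin-binding protein C, had 241, 122 and 12 counts in +Dox and 3890 and 4898 in -Dox. Its log2 fold change was 5.42 ± 0.90 (SE, edgeR adjusted p = 0.00604), and 4.90 without replicate 3 of +Dox (adjusted p = 0.00439). Mybpc2, the fast skeletal isoform, had 0, 1 and 0 counts in +Dox and 0 counts in both -Dox libraries, which allows up to 3 counts in each. The slow isoform was therefore counted in -Dox cells and the fast one was not.

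The second comparison set +Dox cells against satellite cells from muscle, the muscle cells that express Pax7 themselves. Here the 8 genes split. Ttn and Nrap were higher in +Dox (2 of 7 tested, against 18.2% of all genes), Neb, Xirp1, Xirp2 and Mybpc1 were lower (4 of 7, against 23.9%), and Mybph was not called. In either direction 42.1% of all genes were called. The median log2 fold change was -4.44 for the 7 and -0.17 over all genes.

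Ttn had 713, 666 and 258 counts in satellite cells, all below the lowest +Dox library at 2311. The mean was 724 ± 333 (SD, n = 3) normalized counts, and the log2 fold change of +Dox over satellite cells was 2.61 ± 0.47 (SE, edgeR adjusted p = 0.00194), or 2.95 without replicate 3 of +Dox. Nrap had 1, 0 and 5 counts in satellite cells against 35 to 690 in +Dox. That gave a log2 fold change of 6.89 ± 1.19 (SE, edgeR adjusted p = 0.00149), or 7.42 without replicate 3 of +Dox. These were the 2 genes of the 8 called higher in +Dox than in satellite cells.

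Neb went the other way. It had 312, 1084 and 1000 counts in satellite cells, a mean of 1061 ± 567 (SD, n = 3), and was lower in +Dox by a log2 fold change of -4.44 ± 0.51 (SE, edgeR adjusted p = 0.000167). The log2 ratio of Neb to Ttn counts within a library, which no scaling can alter, was -6.46, -7.28 and -5.49 in +Dox, -1.66 and -1.94 in -Dox, and -1.19, 0.70 and 1.95 in satellite cells. The 3 groups did not overlap in this ratio. Exact two-sided permutation tests gave p = 0.1 for -Dox against +Dox and for +Dox against satellite cells (adjusted p = 0.3 over 9 tests) and 0.2 for -Dox against satellite cells (adjusted p = 0.45), where 0.1 is the smallest p these group sizes allow.

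Xirp1 was spread over all satellite cell libraries, with 127, 713 and 232 counts, and the 2 counts in +Dox were 0.00112 of that level (95% exact counting interval 0.000135 to 0.00405, edgeR adjusted p = 8.58e-05). Xirp2 was not. Its satellite cell counts were 140, 6 and 0, so that replicate 1 held 140 of 146, and the groups overlapped at 0. Xirp2 passed the threshold (edgeR adjusted p = 0.0184), but without replicate 1 of satellite cells the fitted log2 fold change moved from -6.63 to -2.68 (adjusted p = 0.152). It was also not called without replicate 1 (adjusted p = 0.0514), 2 (0.0593) or 3 (0.0658) of +Dox.

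Mybpc1 was the most abundant of the 8 genes in satellite cells per kilobase of exon. It had 5575, 2368 and 2201 counts there, a mean of 4472 ± 2487 (SD, n = 3), against 94.1 ± 85.1 (SD, n = 3) in +Dox. The log2 fold change was -5.56 ± 0.88 (SE, edgeR adjusted p = 0.000971), and -5.04 without replicate 3 of +Dox. The fast isoform, Mybpc2, was seen in 1 library alone, with 265, 0 and 0 counts over the 3 satellite cell libraries. Mybph had 137, 22 and 22 counts and overlapped the +Dox libraries at 12, 54 and 14 (log2 fold change -1.93 ± 0.77, SE, edgeR adjusted p = 0.0661). It passed the threshold when replicate 2 of +Dox (adjusted p = 0.0321) or replicate 2 (0.0422) or 3 (0.0451) of satellite cells was left out.

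Replicate 1 of satellite cells was thus the highest of the 3 for Ttn, Xirp2, Mybpc1, Mybpc2 and Mybph, and the lowest for Neb and Xirp1. The same library had the highest summed level of 12 myofibre markers, 390 CPM against 202 and 274, and was the highest of the 3 in 8 of the 12. All 12 of those markers had counts in satellite cells. Replicate 1 was also the highest in 5 of 6 blood cell markers. Its sums of blood cell, fibroblast, glial and satellite cell markers were the highest of the 3 as well. Replicate 2 had the highest sums of endothelial markers and of smooth muscle and pericyte markers. The part of myofibre RNA, or of other cells, in the values of the 8 genes was not tested.

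**Figure D2:**
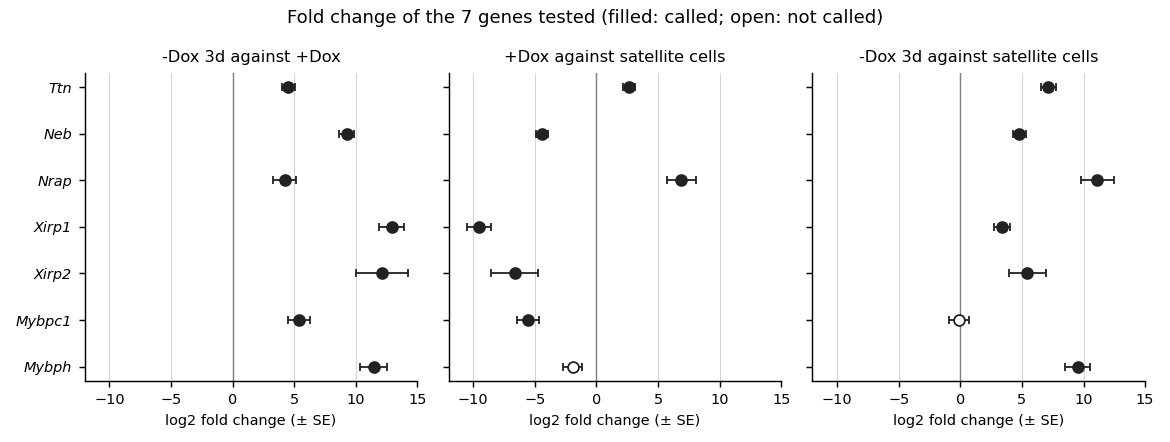
Fitted log2 fold changes from edgeR with standard errors (bars) for the 7 genes tested, in 3 comparisons; filled points were called and open points were not. All 7 lie to the right of 0 for -Dox against +Dox, from 4.22 (Nrap) to 12.91 (Xirp1), and those of Xirp1 and Xirp2 against +Dox rest on 2 counts there.

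In the third comparison, of -Dox with satellite cells, 6 of the 7 genes tested were higher in -Dox (17.2% of all genes were) and none was lower (20.4%), with 37.6% of all genes called in either direction. DESeq2 likewise called 5 higher and none lower of the 6 to which it gave an adjusted p, and in edgeR the gene not called, Mybpc1, had an unadjusted p of 0.863. Log2 fold changes were 11.12 ± 1.33 (SE) for Nrap, 9.51 ± 0.99 for Mybph, 7.15 ± 0.59 for Ttn, 5.45 ± 1.51 for Xirp2 and 3.39 ± 0.65 for Xirp1. Neb was 27.9-fold higher, with an SE of 0.52 on the log2 scale. The edgeR adjusted p-values ran from 5.80e-05 (Ttn) to 0.0185 (Xirp2). Xirp2 was not called without replicate 1 of -Dox (adjusted p = 0.0721), and without replicate 1 of satellite cells its fitted log2 fold change was 9.41.

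Mybpc1 did not move with the others. Its -Dox counts of 3890 and 4898 lay inside the satellite cell range of 2201 to 5575, with a log2 fold change of -0.14 ± 0.81 (SE, edgeR adjusted p = 0.908), which turned to 0.41 without replicate 1 of satellite cells. The spread does not show that the levels were equal. The 3 comparisons share libraries, so their values are not independent of each other.

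**Figure D3:**
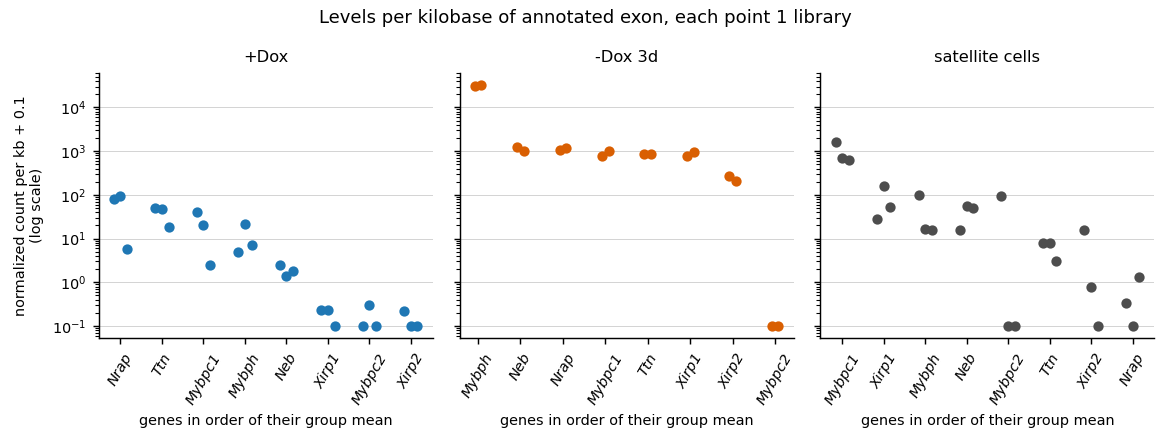
Normalized counts per kilobase of annotated exon plus 0.1, on a log scale, for the 8 genes in each library (points), ordered by group mean. Mybph stands far above the rest in -Dox at 31850 per kb, Mybpc1 leads in satellite cells at 988 and Nrap and Ttn lead in +Dox at 59.6 and 37.9.

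Levels per kilobase made a different order in each cell state. In -Dox, Mybph reached 31850 ± 412 (SD, n = 2) normalized counts per kb, above 99.3% of all genes tested with a known length. Neb (1121 ± 161), Nrap (1115 ± 97.5), Mybpc1 (894 ± 148), Ttn (879 ± 5.36) and Xirp1 (856 ± 108) followed within their spread of each other or close to it, and Xirp2 was lower at 235 ± 41.0 (SD, n = 2 for each). Per kilobase of the longest transcript instead, Neb was at 1314 and Ttn at 961 in -Dox, both shifted by more than their SD. In +Dox the order was Nrap (59.6 ± 47.0), Ttn (37.9 ± 17.3), Mybpc1 (20.8 ± 18.8) and Mybph (11.3 ± 9.25, SD, n = 3 for each), neighbours that did not differ beyond their spread, and Neb was at 1.84 ± 0.57. In satellite cells Mybpc1 (988 ± 549 per kb, SD, n = 3) stood above Xirp1 (81.6 ± 72.1), Mybph (43.6 ± 47.7) and Neb (40.2 ± 21.5), which overlapped. Ttn was at 6.20 ± 2.85 and Nrap, last, at 0.48 ± 0.63 (SD, n = 3).

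Among relatives of the 8 genes (14 genes, 12 tested), 7 were higher in -Dox than in +Dox and none lower (against 4.63% and 3.01% of all genes), with a median log2 fold change of 3.94 over the 12. The largest rises were in Myot, encoding the Z-disc protein myotilin (mean normalized count 0.25 in +Dox and 8341 in -Dox), Mypn, encoding myopalladin (0 and 2156), and Myom1, encoding the M-band protein myomesin (7.46 and 7394). Not called were Igfn1 (log2 fold change 3.72), Speg (0.56), Obsl1 (0.08) and Lasp1 (-0.48), and Nebl, a nebulin relative of heart and non-muscle cells, had 0 counts in all 5 iPax7 libraries. Cardiac Mybpc3 and Mybphl had at most 1 count in any of the 8 libraries and were not tested.

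Between +Dox and satellite cells 2 of the 12 relatives were called higher and 4 lower, against 18.2% and 23.9% of all genes. Myom2 (564 normalized counts in +Dox, 0.89 in satellite cells) and Myom3 (61.2 and 0) were higher in +Dox. Myom1 (7.46 and 265), Myot (0.25 and 96.2), Mypn (0 and 27.7) and Nebl (0 and 188) were lower, and 6 were not called, among them Igfn1 (9.32 and 1.32), Obsl1 (log2 fold change 2.19), Lasp1 (0.39), Speg (-0.13) and Palld (-0.90). Between -Dox and satellite cells, 7 relatives were higher, led by Myom3 and Myom2 (2255 and 10069 normalized counts in -Dox), and Nebl was lower, against 17.2% and 20.4% of all genes. Igfn1 (125 and 1.32 normalized counts), Obsl1 (log2 fold change 2.27), Speg (0.43) and Lasp1 (-0.09) were not called.

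Of 24 partners, genes for Z-disc, titin-binding and sarcomere assembly proteins, 19 were higher in -Dox than in +Dox and none lower, against 4.63% and 3.01% of all genes. Lmod2, a leiomodin that elongates thin filaments, changed most, from 0.74 to 2911 normalized counts, ahead of Ankrd2 (log2 fold change 10.80), which binds the titin spring region, and Csrp3 (10.41), the muscle LIM protein. Tcap, the titin cap at the Z-disc, went from 1.24 to 1063 normalized counts. The 5 not called were Capn3, the titin-bound protease calpain 3 (0.55 and 122 normalized counts), Trim63 (log2 fold change 6.99), Tmod4 (1.55), Trim54 (0.97) and Fhl2 (0.78). Against satellite cells, 3 partners were higher in +Dox (Trim54 by a log2 fold change of 5.64, Fhl2 by 1.88 and Trim55 by 1.78) and 9 lower, against 18.2% and 23.9% of all genes. The furthest of the 9 were Lmod2 (0.74 against 247 normalized counts), Fhl1 (95.8 against 15849) and Capn3 (0.55 against 40.3). Not called were Trim63, which had 0 counts in satellite cells, and 11 others with log2 fold changes between -3.25 (Csrp3) and 2.74 (Smyd1), among them Tmod1, Ldb3, Lmod3, Cfl2, Klhl31, Ankrd1, Actn2, Ankrd23 and Tmod4. In -Dox against satellite cells 19 partners were higher, with Trim63 (0 counts in satellite cells), Lmod3 (9.41) and Actn2 (8.31) first. Fhl1 (-5.22) and Flnc (-2.65) were lower, and Klhl40 (2.12), Capn3 (1.59) and Tmod4 (-0.12) were not called. Of all genes 17.2% were higher and 20.4% lower in that comparison.

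Regulators of the muscle programme moved too. Myog, encoding myogenin, went from 4643, 6233 and 4775 counts in +Dox to 174978 and 204877 in -Dox (log2 fold change 5.40), and Mef2c, a member of the MEF2 family, from 166, 271 and 54 to 55296 and 56050 (8.68). Myf6 was higher as well (5.14). Myod1 was not called between -Dox and +Dox (-0.52, edgeR adjusted p = 0.545), but had 15490 to 19452 counts in satellite cells against 125 to 352 in iPax7 cells (log2 fold change of +Dox over satellite cells -6.84). Mef2c (-3.87) and Myf6 (-5.69) were lower in +Dox than in satellite cells too, where Myog was not called because its change fell short of 2-fold (0.76). In -Dox against satellite cells Myog (6.16) and Mef2c (4.81) were higher, Myod1 (-7.36) was lower and Myf6 (-0.55) was not called.

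The genes whose pattern over the 8 libraries was most like the mean profile of the 7 tested genes were Mb, Casq1, Hspb3, Mtss1l, Apobec2, Tmem182, Acta1, Actc1, Myh1 and Dnase1l3. Their Pearson r on log2(CPM + 1) was 0.990 to 0.997, out of 9678 candidates, and the 8 libraries share the same 3 groups, so r is given as a description. Mb encodes myoglobin and Casq1 the calcium store protein of the sarcoplasmic reticulum. Of the 7 genes themselves Mybph was nearest that profile (r = 0.982) and Mybpc1 furthest (r = 0.628).

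Start sites were then compared with the peak lists, of which there was 1 per condition from merged replicates or from sites shared between replicates, so no test was possible. In +Dox an ATAC-seq peak lay within 1 kb of the start of 7 of 8 genes, including Xirp1, Xirp2 and Mybpc2, which had 2 counts of RNA or fewer there. Of all genes tested 84.8% had one. Only 3 of the 8 had a peak within 250 bases of the start (Ttn, Nrap and Xirp2). Neb was the exception, with no ATAC-seq peak at its annotated start in +Dox or at 12 h, 24 h or 3 days after Dox removal, when 7 of 8 genes again had one (82.9%, 85.6% and 86.4% of all genes).

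The strongest ATAC-seq peak within 1 kb of the start of Ttn had a fold enrichment of 17.1 in +Dox. It was 4.09 at 12 h, 5.55 at 24 h and 4.16 at 3 days after Dox removal, and 21.6 in iPax7 myotubes. The summit lay 645, 607 and 637 bases inside the gene in +Dox, at 12 h and at 24 h. In -Dox at 3 days it lay at position -175 from the start and in myotubes at -60, so the values do not follow 1 summit. The median over all starts with a peak was 24.1, 14.3, 25.2, 23.5 and 17.6 in those 5 lists. Xirp1 had a peak with its summit at positions -685 to -753 in each of the 10 ATAC-seq lists, with an enrichment of 14.0 in +Dox, 9.62 in -Dox at 3 days and 5.47 in satellite cells. Xirp2 had 4.30 in +Dox and 2.13 in -Dox at 3 days, and 12.3 in iPax7 myotubes. Inside the Ttn gene 59 peaks were called in iPax7 myotubes, over 12.7% of its length, and 9 in +Dox, over 1.66%. In iPax7 and in C2C12 myotubes all 8 genes had a peak (83.6% and 75.2% of all genes), and in untreated C2C12 myoblasts Nrap and Xirp1 did (63.2%). Xirp2 alone lacked one with Pax7-Flag (78.1% of all genes) and Neb alone with the Flag control (77.1%). In satellite cells Ttn, Nrap, Xirp1 and Mybpc1 had a peak (81.1%). The list of untreated C2C12 myoblasts was the smallest of the 10, at 17.2 Mb, and its part was not tested.

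**Figure D4:**
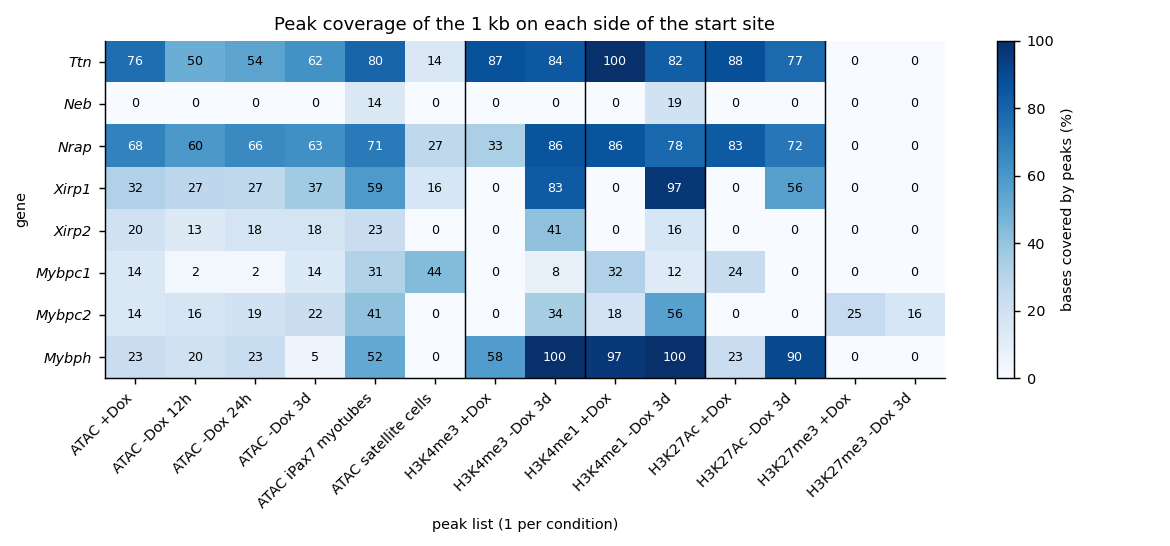
Share of the bases within 1 kb on each side of the most upstream start site that peaks covered (percent, 0 to 100), for 8 genes and 14 peak lists, 1 list per condition. H3K4me3 spreads from +Dox to -Dox for Xirp1 (0% to 83.4%), Xirp2 (0% to 41.1%) and Mybph (57.5% to 100%), and H3K27me3 appears at Mybpc2 alone.

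H3K4me3, the mark of active promoters, lay at the starts of Ttn, Nrap and Mybph in +Dox (3 of 8, against 83.8% of all genes) and at 7 of 8 in -Dox at 3 days (against 88.9%), where Neb alone lacked it. Covered bases around the start went from 0% to 83.4% for Xirp1 and from 0% to 41.1% for Xirp2. They went from 33.5% to 86.3% for Nrap and from 57.5% to 100% for Mybph. Ttn did not follow, at 86.9% and 84.4%. The -Dox H3K4me3 list was larger throughout, with 214172 peaks over 155 Mb against 94067 over 63.6 Mb in +Dox, and its part in these gains was not tested. Over the 11 annotated starts of Neb, peaks of H3K4me3, H3K27Ac and H3K27me3 were found in -Dox and not in +Dox, none of them at its first start.

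H3K27Ac, found at active promoters and enhancers, was present in 4 of 8 genes in both states (69.1% and 65.2% of all genes). Xirp1 gained it (0% to 56.1% of bases), although the -Dox list was the smaller, 49.2 Mb against 73.1 Mb. Mybpc1 lost it (23.6% to 0%), and the part of the smaller list in that loss was not tested. In +Dox the nearest H3K27Ac peak was 0.459 kb from the Mybpc1 start, and the mark also overlapped the Pax7 site upstream that is described further on. H3K4me3 around the same start went from 0% to 8.10%. At Mybph H3K27Ac spread from 22.9% to 90.5%. H3K4me1 was at 5 of 8 genes in +Dox and 8 of 8 in -Dox (85.1% and 86.4% of all). Xirp1 went from 0% to 97.1% of bases, Neb from 0% to 19.1% and Xirp2 from 0% to 15.7%. Cover also rose at Mybpc2 (18.3% to 55.8%) and Mybph (96.65% to 100%). It fell at Ttn (100% to 82.3%), Nrap (86.1% to 78.0%) and Mybpc1 (32.0% to 12.1%). The -Dox H3K4me1 list was the larger, 155 Mb against 128 Mb, and its part was not tested.

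H3K27me3, the mark laid down by Polycomb complexes at silent genes, was at the start of 1 gene of 8, Mybpc2, in both +Dox and -Dox (17.9% and 15.3% of all genes). It covered 38.0% of the Mybpc2 gene body in +Dox and 48.8% in -Dox. The next highest cover was 3.46% for Mybpc1 in +Dox and 0.91% for Neb in -Dox. In +Dox Xirp1 and Xirp2, with 2 counts each, had no H3K27me3 peak at the start. Mybpc2 was the gene of the 8 with 0 counts in both -Dox libraries. In the same state its start carried H3K4me3 (34.1% of bases), H3K4me1 (55.8%) and an ATAC-seq peak with an enrichment of 6.75.

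In C2C12 myoblasts the marks differed between Pax7-Flag and the Flag control at several of the same starts. H3K27Ac was at Ttn, Nrap and Xirp1 in the control (3 of 8, against 76.3% of all genes) and also at Mybpc1, Mybpc2 and Mybph with Pax7-Flag (6 of 8, against 77.2%). Mybph went from 0% to 67.3% of bases. H3K4me1 was at 5 of 8 starts in the control and 7 with Pax7-Flag (64.3% and 83.8% of all genes), and H3K4me3 at 0 and 2, Ttn and Nrap (62.1% and 51.4%). H3K27me3 was within 1 kb of the start of Mybpc1 in the control (12.6% of all genes). With Pax7-Flag it was at that of Mybpc2 (15.5%), where it covered 33.7% of the bases around the start. Both gene bodies held the mark in both lists. Mybpc2 had 13 peaks in each, over 6070 bases in the control and 13773 with Pax7-Flag. The nearest in the control was 1.13 kb from the start. Body cover of Mybpc1 was 9.53% in the control and 8.86% with Pax7-Flag, where another annotated start had a peak. That of Mybph was 36.59% and 32.85%. The H3K4me1 list was larger with Pax7-Flag, 235 Mb against 127 Mb. So were those of H3K27Ac, 122 Mb against 91.2 Mb, and H3K27me3, 161 Mb against 130 Mb. That of H3K4me3 was smaller, 26.3 Mb against 30.7 Mb. The part of list size in these differences was not tested.

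Pax7 ChIP-seq in +Dox gave 2455 sites, kept by the study when found in several +Dox samples and in no -Dox sample. One of the 8 genes, Mybpc1, had such a site within 1 kb of its start, where 1.85% of all genes did. It lies at chr10:88068627-88069255, with its near edge 0.73 kb upstream of the start. A second site, chr19:56448210-56449105, lies inside Nrap, 15.4 kb from its start. The nearest sites to the other 6 genes were 323 to 1210 kb away, against a median of 320 kb over genes tested. The middle 300 bases of both sites are shown because their accessibility differed. Capitals mark ATTA or its reverse complement TAAT, the core bound by homeodomains such as that of Pax7, which 82.8% of all Pax7 sites contain in such a window.
Mybpc1 Pax7 site, chr10:88068792-88069091, plus strand: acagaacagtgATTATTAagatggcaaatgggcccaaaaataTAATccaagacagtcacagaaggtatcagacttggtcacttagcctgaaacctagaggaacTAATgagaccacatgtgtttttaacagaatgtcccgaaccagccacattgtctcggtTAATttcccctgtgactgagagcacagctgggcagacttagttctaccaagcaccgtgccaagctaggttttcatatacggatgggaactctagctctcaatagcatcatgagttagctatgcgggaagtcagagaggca
Nrap Pax7 site, chr19:56448508-56448807, plus strand: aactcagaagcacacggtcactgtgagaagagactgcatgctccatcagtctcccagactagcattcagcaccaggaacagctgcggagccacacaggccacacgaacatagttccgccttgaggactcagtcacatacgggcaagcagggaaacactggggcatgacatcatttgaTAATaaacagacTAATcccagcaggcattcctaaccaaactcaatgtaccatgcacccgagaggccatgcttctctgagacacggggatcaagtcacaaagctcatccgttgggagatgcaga

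The window near Mybpc1 held 5 ATTA cores and that in Nrap 2. Neither held TAAT followed by ATTA with 2 or 3 bases between them, which 1.02% and 1.67% of all Pax7 sites had. Both held E-boxes, 4 and 2 of any form and 1 each of CAGCTG, found in 81.2% and 25.6% of Pax7 sites.

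The Mybpc1 site was more accessible with Pax7 than without it in iPax7 and in C2C12 cells. ATAC-seq enrichment there was 29.5 in +Dox and 4.79, 4.19 and 3.33 at 12 h, 24 h and 3 days after Dox removal. It was 15.8 in satellite cells. In C2C12 myoblasts no peak was called without a vector, enrichment was 4.03 with the Flag control and 21.9 with Pax7-Flag. The list without a vector was the smaller, 17.2 Mb against 40.6 Mb (Flag control) and 47.9 Mb (Pax7-Flag), and its part was not tested. H3K27Ac covered the site in +Dox and Pax7-Flag cells and neither in -Dox at 3 days nor in the Flag control, where an H3K27me3 peak overlapped it. The RNA had the other order within iPax7 cells, since Mybpc1 counts were 12 to 241 in +Dox and 3890 and 4898 in -Dox.

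The Nrap site stayed accessible in all 10 lists. Enrichment was 104 in +Dox, 50.7, 86.1 and 64.0 at 12 h, 24 h and 3 days after Dox removal, 15.4 in satellite cells, 32.8 with the Flag control and 44.5 with Pax7-Flag. Over all Pax7 sites, 95.4% had an ATAC-seq peak in +Dox (median enrichment 20.4) and 68.0% in -Dox at 3 days (10.2), 53.0% in satellite cells, 38.6% with the Flag control and 71.0% with Pax7-Flag. H3K27Ac and H3K4me1 overlapped the Nrap site in +Dox and -Dox alike. With 1 list per condition the size of these differences has no replicate check.

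**Figure D5:**
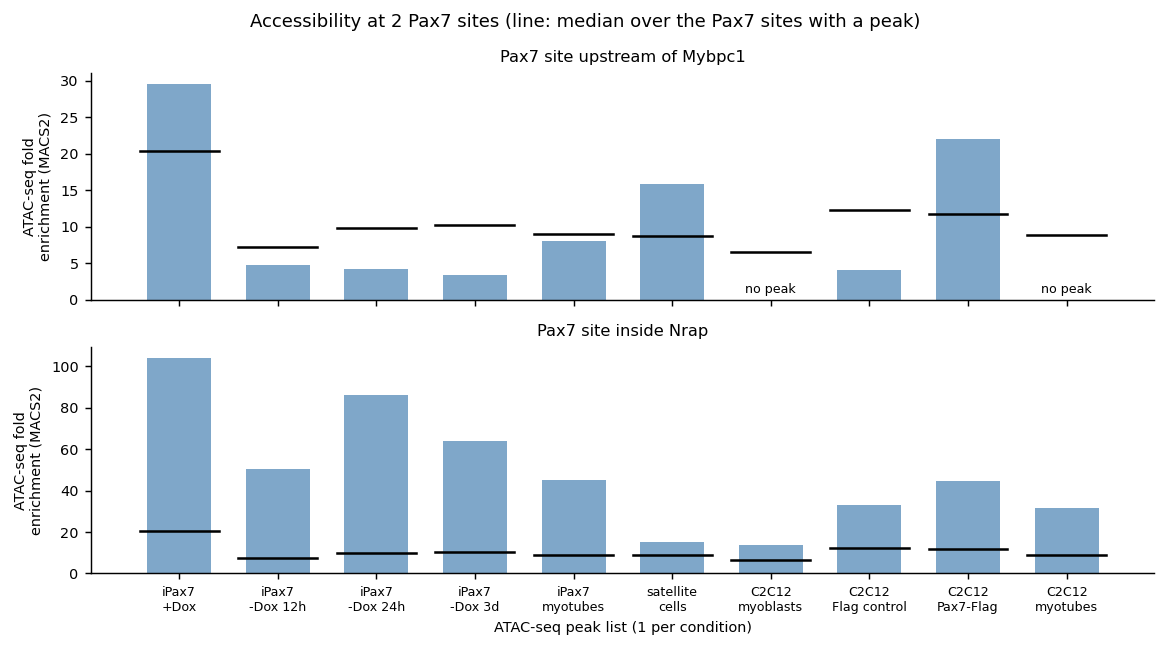
ATAC-seq fold enrichment given by MACS2 (bars) at the Pax7 site upstream of Mybpc1 and the one inside Nrap in 10 peak lists, 1 per condition, with the median over all Pax7 sites that had a peak (black lines). The Mybpc1 site falls from 29.5 in +Dox to 3.33 in -Dox at 3 days and reaches 21.9 in C2C12 cells with Pax7-Flag, while the Nrap site stays between 13.9 and 104.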

How the data were processed

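RNA-seq values were the raw read counts per gene that the authors deposited, 1 file per library. The submitters' processing notes name TopHat2 2.0 and HTSeq 0.6 among their tools, with the mm9 build; which step used which was not given in the sources used here. Rows that name no gene (9.19% to 32.4% of reads, mostly reads without a unique place) were left out. For ATAC-seq the authors merged replicates and called peaks with MACS2 2.0.10. The deposited ATAC-seq lists give a fold enrichment (ratio over the genome-wide background) and a −log10 q per peak, and the deposited ChIP-seq lists, called with Qeseq per the study's methods, give positions only.

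Counts were tested with edgeR 4.0.16 in R 4.3.3 (TMM scaling, filterByExpr, quasi-likelihood fit with 1 mean per group over all 8 libraries, 5 residual degrees of freedom, 14836 of 24466 genes tested), after the script was tested on simulated data. For normalized counts, each library was rescaled from its effective size to the geometric mean of all 8. Standard errors were taken from the F statistic. Count ratios have exact 95% intervals, and log2 ratios of 2 genes used a pseudocount of 0.5. Annotated starts came from GENCODE M1, in which 20656 symbols had 1 place, and 13486 tested genes entered the peak counts. GEO's labels give 1 sample per RNA group with several replicate files, so p-values measure the spread between these libraries, which may be technical. The 8 genes and the gene lists were chosen with earlier results of these data known, and the ATTA motifs after the sites had been seen. Genes of the lists were named by a fixed rule, the 3 called with the largest change in each direction and those not called. Alternatives were DESeq2 1.42.0, other filters, the compared libraries alone, a replicate block, each library left out, other transcript lengths, a window of 250 bases, any annotated start and a −log10 q of at least 10. No peak list was used for iPax7 myotube histone marks or for Pax7 in -Dox, which were not analysed here, and 1 gene of the lists and 1 sequence are not reported here.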

Additional observations from a re-analysis of the deposited data

How the results depend on the processing

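The number of the 8 genes called stayed at 6 or 7 (-Dox against +Dox), 5 to 7 (+Dox against satellite cells) and 5 or 6 (-Dox against satellite cells) over 13 alternatives each. In the main fit, where 7 of the 8 were tested, 7.64%, 42.1% and 37.6% of all genes were called in these comparisons. Ttn, Neb and Xirp1 kept their direction and call in all 3 comparisons under every alternative run. DESeq2 gave Xirp2 no adjusted p, and with only the compared libraries it was not tested between +Dox and satellite cells. Mybpc1 between -Dox and satellite cells, not called, changed sign without replicate 1 of -Dox (log2 fold change 0.02) or of satellite cells (0.41), within a range of -0.38 to 0.41 over the libraries left out. The cause was not tested. Same-numbered libraries of +Dox and -Dox did not deviate together (r of -0.05 and 0.05), so the numbers give no pairing. With a replicate block Nrap was not called between -Dox and +Dox (4.05, adjusted p = 0.0644 in edgeR) and 741 genes in all were, against 1134. The total for -Dox against +Dox was 2010 with DESeq2 and 1950 with only the compared libraries. It ran from 488 (without replicate 2 of -Dox) to 1374 over the libraries left out, and was 508 without replicate 1 of -Dox, 674 and 630 without replicates 1 and 2 of +Dox. For -Dox against satellite cells it was 3204 and 3382 without replicates 1 and 2 of -Dox, and at most 5821. A lone -Dox library was assumed to vary like the other groups. Without the filter on low counts the median log2 fold change of all genes went from -0.17 to -0.42 (+Dox against satellite cells) and from -0.23 to -0.50 (-Dox against satellite cells).

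Within 250 bases of the start, 3 of 8 genes had an ATAC-seq peak in +Dox, at 12 h, at 24 h and in the Flag control, 2 with Pax7-Flag, 1 in satellite cells and 0 in untreated myoblasts, and 0 had a Pax7 site. With a −log10 q of at least 10, 4 had one at 12 h, 2 in the Flag control, 1 in untreated myoblasts and 4 with Pax7-Flag. Counting any annotated start gave H3K27me3 at 2 genes in +Dox and in -Dox, and at 3 in each C2C12 state. Depth limits Xirp1, Xirp2 and Mybpc2 in +Dox, at 2 counts or fewer in all.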
